A study of Danio rerio with 24 samples.

Results

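The genes described are 6 of prostaglandin synthesis in the zebrafish: ptgs1, ptgs2a and ptgs2b, which encode cyclooxygenases, and ptges, ptgis and ptgdsb, which encode enzymes that act after them. They were chosen by symbol, and all 6 listed symbols stand among the 14781 genes of the read count tables. The choice was made with earlier results of these comparisons known, and which measured values weighed in it is not recorded. The fold changes and adjusted p-values of these genes are therefore a description and support nothing on their own. The labels cover 24 samples, of which the 14 RNA-seq libraries were used and the 10 ATAC-seq samples were not analysed here. All fish were adult males of the EK strain, aged 4 to 12 months. The ablation experiment compared brain and whole kidney marrow, the blood-forming organ of the fish, between fish whose cardiomyocytes had been ablated and uninjured fish, with 2 libraries per group. The cebpd experiment compared ablated brain between cebpd homozygous knockout and cebpd wild type fish, with 3 libraries per group, so that every fish of that experiment carried the heart injury. Ablation used a bath of 0.5 to 0.7 µM tamoxifen for 17 h, and tissue was collected at 7 days. The labels name no transgene for the ablation, give no allele of cebpd beyond the genotype, and do not say whether uninjured fish were bathed or whether each library is 1 animal.

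Prostaglandins are lipid signals made from arachidonic acid, which phospholipases free from membranes. Cyclooxygenases turn it into prostaglandin H2, and terminal synthases turn that into prostaglandin E2 (ptges), prostacyclin (ptgis) or prostaglandin D2 (the ptgds genes), each of which acts on its own G protein-coupled receptors. In mammals, prostaglandin E2 made in brain vessels is known for fever, prostaglandin D2 for sleep, and the lipocalin-type prostaglandin D synthase is also an abundant carrier protein of the meninges and cerebrospinal fluid. In zebrafish, prostaglandin E2 is known to act on blood-forming stem cells.

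The ablation libraries held 14364306 to 20469655 gene reads and the cebpd libraries 4377028 to 6280007, so low genes are less precise in the latter. Levels below are CPM, reads of a gene relative to the TMM-scaled size of its library, set separately for brain, for marrow and for the cebpd experiment. CPM is not per gene length, so levels are compared within a gene and never between genes. cebpd, the targeted gene, ranged from 41.7 to 78.4 CPM in wild type brain and from 0.906 to 3.05 CPM in mutant brain, with an edgeR adjusted p of 1.32e-05 for the difference. Neuron markers summed to 9235 to 9652 CPM in brain and 49.6 to 69.1 CPM in marrow, with 8 of 8 listed genes in the tables. Neutrophil markers, also 8 of 8, summed to 4370 to 4983 CPM in marrow and 51.2 to 87.5 CPM in brain. Nephron markers, 6 of 8, summed to 5102 to 6925 CPM in marrow, so these libraries also hold kidney tubule RNA. Tests were made with edgeR over the whole table, with p-values adjusted over all genes tested and called at 0.05. In the brain 0.453% of the genes tested were called after ablation, in the marrow 0.00%, between cebpd genotypes 0.135%, between the uninjured tissues 78.1%, and in the difference of the ablation effects between tissues 0.260%.

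Of the 6 genes, 1 was called in the ablated brain, ptgdsb, which rose 1.56-fold. None was called in the ablated marrow, between cebpd genotypes or in the difference between tissues. Between the uninjured tissues 2 were called, ptgs1 and ptgs2b, both lower in brain than in marrow. At an unadjusted edgeR p under 0.05 there was 1 of the 6 genes in the marrow, beside 2384 of all 12160 genes tested. Between genotypes there were 0 of 4, beside 944 of 11103, and in the tissue difference 1 of 6, beside 2091 of 13077. The gene was ptges in the marrow and in the tissue difference. DESeq2 called 0 in each of these 3 comparisons, giving no adjusted p for 2 of the 6 genes in marrow and 4 in the tissue difference.

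**Figure D1:**
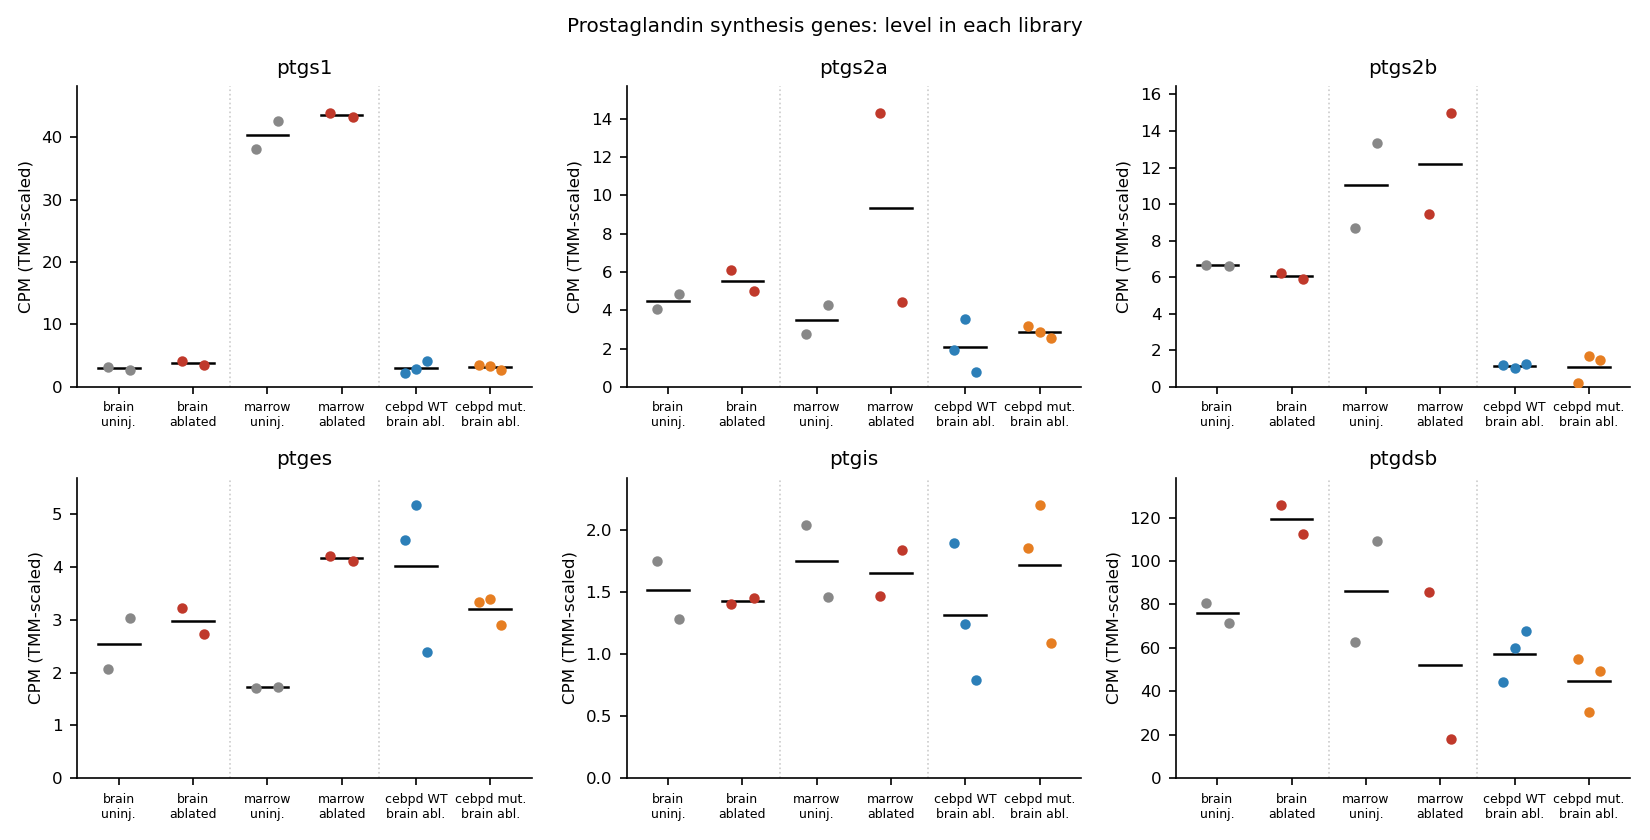
Level of each of the 6 genes in each of the 14 RNA libraries, in TMM-scaled CPM on a linear axis from 0, by group; each point is 1 library and the bar is the group mean. ptgs1 stands at 38.1 to 43.8 CPM in marrow and 2.14 to 4.21 CPM in brain, and ptgdsb is higher in the ablated than in the uninjured brain libraries.

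ptgs1 encodes the cyclooxygenase that in mammals is made steadily in many cells, platelets among them. In marrow it stood at 43.8 and 43.2 CPM after ablation and at 38.1 and 42.6 CPM in uninjured fish, from 710 to 915 reads. In brain it stood at 4.21 and 3.44 CPM after ablation and at 3.13 and 2.77 CPM in uninjured fish, from 41 to 64 reads. Every marrow library was above every brain library. In the fit of the uninjured tissues ptgs1 was 15.8-fold lower in brain, a log2 fold change of -3.98 (SE 0.15, 95% interval -4.35 to -3.61, edgeR adjusted p = 4.17e-06). Since these are bulk samples, a smaller number of cells of a type cannot be told apart from less RNA per cell. Thrombocyte markers, the fish counterpart of platelets, moved the same way: 5 of 7 listed genes were in the tables, none at 0 in these 8 libraries, and they summed to 182 to 293 CPM in marrow and 43.9 to 48.2 CPM in brain. Most of the brain sum was 1 gene, gp1bb, at 39.4 to 42.7 CPM. All 5 were called lower in uninjured brain, with a median log2 fold change of -4.01, beside -4.06 for the 5 erythroid genes. Other marker lists were also called lower in brain: neutrophils 8 of 8 tested, nephron 6 of 6, erythroid cells 5 of 5, endothelial and mural cells 7 of 8. Neuron, radial glia and myelin markers were all called higher there. Of all 12936 genes tested, 5065 were called lower. The part of any of these cells in the tissue difference of ptgs1 was not tested.

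After ablation ptgs1 was not called in either tissue. Its log2 fold change was 0.36 (SE 0.23, 95% interval -0.14 to 0.87, edgeR adjusted p = 0.843) in brain and 0.11 (SE 0.11, 95% interval -0.18 to 0.39, edgeR adjusted p = 0.637) in marrow. The ablated libraries lay above the uninjured ones in both tissues without overlap, by the small steps given above. Thrombocyte markers in marrow summed to 283 to 293 CPM after ablation and 182 to 189 CPM in uninjured fish, and their part in these steps was not tested. In the cebpd experiment ptgs1 stood at 2.14, 2.90 and 4.13 CPM in wild type and 3.52, 3.39 and 2.72 CPM in mutant brain, from 9 to 26 reads. The genotypes overlapped, with a log2 fold change of 0.02 (SE 0.31, 95% interval -0.65 to 0.70).

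ptgs2a and ptgs2b are the zebrafish copies of the cyclooxygenase that in mammals is induced by inflammation and, in neurons, by activity. ptgs2a stood at 14.3 and 4.44 CPM in ablated marrow, against 2.74 and 4.27 CPM in uninjured marrow, from 234, 94, 51 and 79 reads. The groups did not overlap, but ablated replicate 2 lay just above uninjured replicate 2, and replicate 1 alone carried the distance. The log2 fold change was 1.40 (SE 0.59, 95% interval -0.11 to 2.91, edgeR adjusted p = 0.277), and it ranged from 0.34 to 2.03 when 1 library at a time was left out, the lowest without ablated replicate 1. In brain ptgs2a stood at 6.10 and 5.00 CPM after ablation and at 4.06 and 4.86 CPM in uninjured fish. Here too the groups did not overlap, and the log2 fold change was 0.31 (SE 0.20, 95% interval -0.13 to 0.74, edgeR adjusted p = 0.843).

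In the cebpd experiment ptgs2a stood at 1.90, 3.52 and 0.795 CPM in wild type and 3.15, 2.88 and 2.54 CPM in mutant brain, from 5 to 17 reads. The highest and the lowest library were both wild type, and the log2 fold change was 0.52 (SE 0.43, 95% interval -0.41 to 1.45, edgeR adjusted p = 0.805). It ran from 0.053 without wild type replicate 3 to 1.17 without wild type replicate 2. Between uninjured brain and marrow it was 0.13, with an adjusted p of 0.688.

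ptgs2b stood at 6.69 and 6.61 CPM in uninjured brain and 8.69 and 13.4 CPM in uninjured marrow. It was 1.92-fold lower in brain, with a log2 fold change of -0.94 (SE 0.25, 95% interval -1.55 to -0.33, edgeR adjusted p = 0.0140). That call was lost without either uninjured brain library, at an adjusted p of 0.0890 without replicate 1 and 0.0937 without replicate 2, where the remaining brain library is assumed to vary like the marrow ones. After ablation it stood at 6.24 and 5.91 CPM in brain, below both uninjured libraries by a log2 fold change of -0.13 (SE 0.16, 95% interval -0.49 to 0.22, edgeR adjusted p = 0.936). In marrow it stood at 9.46 and 15.0 CPM after ablation, which overlaps the uninjured libraries, with a log2 fold change of 0.15 (95% interval -0.63 to 0.94, edgeR adjusted p = 0.814).

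The cebpd experiment gave 1 to 10 reads of ptgs2b per library, at 1.19, 1.03 and 1.27 CPM in wild type and 0.186, 1.69 and 1.45 CPM in mutant brain. It did not pass the low-count filter there and was not tested. Without the filter its log2 fold change was -0.05, with a 95% interval of -1.29 to 1.19, which does not resolve the sign.

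ptges encodes the microsomal prostaglandin E synthase, which in mammals is induced along with the inducible cyclooxygenase. In marrow it stood at 4.21 and 4.11 CPM after ablation, from 69 and 87 reads. In uninjured marrow it stood at 1.72 and 1.73 CPM, from 32 reads in each library. The replicates of each group lay close together and the groups did not overlap. The 2.41-fold difference, a log2 fold change of 1.27 (SE 0.24, 95% interval 0.66 to 1.87), had an unadjusted p of 0.00281 and an edgeR adjusted p of 0.0999, and so was not called. One fit of all 4 groups of both tissues gave 1.26 with an edgeR adjusted p of 0.0233. That fit shares 1 estimate of the spread between the tissues and called 912 genes higher and 440 lower in marrow. No gene at all was called in the marrow by the fit of the marrow alone, where 2384 of 12160 genes had an unadjusted p under 0.05 and DESeq2 called 429 higher and 178 lower. DESeq2 gave ptges no adjusted p there.

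In brain ptges stood at 3.23 and 2.74 CPM after ablation and at 2.06 and 3.04 CPM in uninjured fish, and the groups overlapped. Ablation gave a log2 fold change of 0.22 (SE 0.27, 95% interval -0.37 to 0.81, edgeR adjusted p = 0.937). The ablation effect in marrow exceeded that in brain by 1.04 on the log2 scale (SE 0.36, 95% interval 0.20 to 1.88, edgeR adjusted p = 0.233), which was not called. In the cebpd experiment ptges stood at 4.51, 5.17 and 2.38 CPM in wild type and 3.34, 3.39 and 2.90 CPM in mutant brain. The mutant libraries all lay between the wild type ones, with a log2 fold change of -0.28 (SE 0.32, 95% interval -0.97 to 0.41, edgeR adjusted p = 0.883). Between uninjured brain and marrow it was 0.35, with an adjusted p of 0.350.

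ptgis encodes prostacyclin synthase, known in mammals from vessel walls. Its reads were few everywhere. It stood at 1.40 and 1.45 CPM in ablated brain and 1.75 and 1.28 CPM in uninjured brain, and at 1.47 and 1.84 CPM in ablated marrow and 2.04 and 1.46 CPM in uninjured marrow, from 19 to 39 reads. The groups overlapped in both tissues. The log2 fold changes were -0.09 (95% interval -0.79 to 0.61) in brain and -0.08 (95% interval -0.95 to 0.79) in marrow, with edgeR adjusted p-values of 0.988 and 0.922. Between uninjured brain and marrow the log2 fold change was -0.41, with an adjusted p of 0.318. In the cebpd experiment, at 1.90, 1.24 and 0.795 CPM in wild type and 1.86, 2.20 and 1.09 CPM in mutant brain, it did not pass the low-count filter. Without that filter the log2 fold change was 0.46, with a 95% interval of -0.56 to 1.47.

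ptgdsb encodes a lipocalin-type prostaglandin D synthase. In brain it stood at 126 and 112 CPM after ablation, from 1794 and 2093 reads, and at 80.7 and 71.3 CPM in uninjured fish, from 1291 and 1056 reads. Both ablated libraries lay above both uninjured ones. The log2 fold change was 0.65 (SE 0.08, 95% interval 0.47 to 0.82, edgeR adjusted p = 0.00596), and DESeq2 gave an adjusted p of 1.66e-07. Without each library in turn it was 0.56 to 0.74 and still called, but each of those fits leaves 1 library in a group and takes the spread from the other group alone. It was not called when both tissues shared 1 estimate of the spread, where the fold change was the same and the adjusted p was 1; there all genes called in the ablated brain came to 0 higher and 1 lower.

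Marker lists of other cells were summed in the same brain libraries, and some of the sums moved. Meningeal fibroblast markers, 8 of 8 in the tables with none at 0, overlapped. They summed to 139 to 153 CPM after ablation and 147 to 156 CPM in uninjured brain. Myelin markers, 7 of 8, summed lower after ablation, at 2601 to 2660 CPM against 2936 to 2957 CPM, with 0 called. The log2 fold change was above 0 for 1 of the 7, olig2, at 52.5 and 50.7 CPM against 44.3 and 42.3 CPM. Microglia and macrophage markers, 7 of 10, summed higher, at 457 to 477 CPM against 423 to 440 CPM. Most of that sum was apoeb, at 387 and 407 CPM against 352 and 368 CPM. Of the others mpeg1.1 was lower, at 29.1 and 31.1 CPM against 37.7 and 33.1 CPM. The log2 fold change was above 0 for 6 of 7, with 0 called. Neutrophil markers summed to 70.3 to 87.5 CPM against 51.2 to 63.8 CPM. Among them ncf1 stood at 47.3 and 37.8 CPM against 21.3 and 29.6 CPM, and without ncf1 the sums overlapped. Above 0 were 5 of 7 tested, with 0 called by edgeR and 1 by DESeq2. Photoreceptor and pineal markers, 8 of 8, summed to 56.9 to 127 CPM after ablation and 116 to 174.5 CPM in uninjured brain, with a median log2 fold change of -0.73 and 0 called. Erythroid markers, 5 of 6, summed to 185 to 227 CPM against 236 to 258 CPM, and the globin gene hbaa1 was called lower at -0.59 (edgeR adjusted p = 0.0321). Without hbaa1 the erythroid sums overlapped, and the log2 fold change was above 0 for 2 of the 5 tested. Endothelial and mural markers, 9 of 10, summed to 337 to 367 CPM against 328 to 334 CPM, and fli1a, a vascular transcription factor, was called higher at 0.56 (edgeR adjusted p = 0.0235). Of the radial glia markers, cx43 was called higher at 0.26 and cyp19a1b lower at -0.35. Neuron markers summed to 9235 to 9458 CPM after ablation and 9593 to 9652 CPM in uninjured brain, with 0 called. The part of these cells' RNA in the rise of ptgdsb was not tested.

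In marrow ptgdsb had the largest standard error of the 6 genes. It stood at 85.9 and 17.9 CPM after ablation and at 62.8 and 109 CPM in uninjured fish, from 380 to 2021 reads. Ablated replicate 2 stood far below the other 3 libraries, and the groups overlapped. The log2 fold change was -0.74 (SE 0.72, 95% interval -2.55 to 1.08, edgeR adjusted p = 0.613), and it ran from -2.26 without ablated replicate 1 to -0.00 without ablated replicate 2. The ablation effect in marrow minus that in brain was -1.39 (SE 0.82, 95% interval -3.28 to 0.49, edgeR adjusted p = 0.456), and it was called, at -2.96 with an adjusted p of 0.0383, without marrow ablated replicate 1, where the lone ablated marrow library is assumed to vary like the other groups. Uninjured brain and marrow overlapped, with a log2 fold change of -0.39 and an adjusted p of 0.207; without marrow uninjured replicate 1 it was -0.73 and called, with the spread taken from the brain pair alone, although the marrow pair lay at 62.8 and 109 CPM.

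In the cebpd experiment ptgdsb stood at 44.4, 60.0 and 67.7 CPM in wild type and 54.7, 30.5 and 49.4 CPM in mutant brain, from 180 to 426 reads. The genotypes overlapped: the lowest library was mutant and the highest wild type. The log2 fold change was -0.37 (SE 0.18, 95% interval -0.77 to 0.02, edgeR adjusted p = 0.626). Myelin markers summed to 2260.5 to 2577 CPM in mutant and 2704 to 2821 CPM in wild type brain, and meningeal fibroblast markers to 220 to 247 CPM and 212 to 241 CPM. No gene of either list was called. Photoreceptor and pineal markers summed to 231 to 376 CPM in mutant and 16.6 to 164 CPM in wild type brain, where replicate 1 was the lowest and the other libraries stood at 161 and 164 CPM, and 1 of 7 tested was called, saga, higher in mutant. Erythroid markers summed to 391 to 457 CPM in mutant and 510 to 623 CPM in wild type brain, and most of each sum was hbaa1. Of the 5 tested, edgeR called 0 and all 5 had an unadjusted p under 0.05. The log2 fold change was above 0 for 1 of the 5, gata1a, at 0.96. DESeq2 called 1, lower in mutant. The part of these markers in the values of ptgdsb and of its neighbour described below was not tested.

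**Figure D2:**
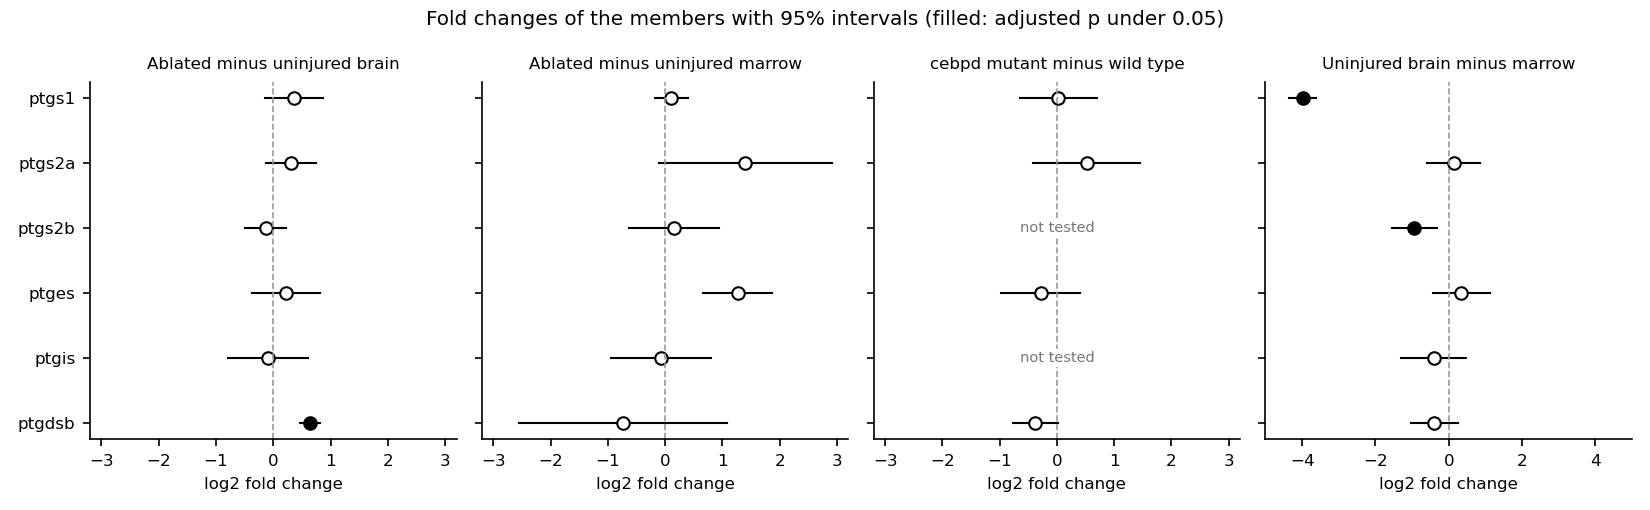
Log2 fold change of each of the 6 genes in each comparison, with 95% intervals from the edgeR fit as horizontal lines; filled circles have an adjusted p under 0.05. The filled circles are ptgdsb in the ablated brain, at 0.65, and ptgs1 and ptgs2b between the tissues, at -3.98 and -0.94.

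By position of the libraries, 4 of the 6 genes had ablated and uninjured brain libraries that did not overlap, ptgs1, ptgs2a and ptgdsb with ablated higher and ptgs2b with ablated lower; of all genes tested in brain 36.1% did not overlap. In marrow it was 3 of 6, ptgs1, ptgs2a and ptges, beside 52.1% of all genes tested. Between cebpd genotypes it was 0 of the 4 genes tested, beside 13.7%. The median log2 fold change of the 6 genes was 0.27 in brain and 0.13 in marrow, and that of the 4 tested between genotypes -0.13, while that of all genes tested was -0.00, -0.01 and -0.00.

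ptgdsb has a tandem neighbour. In the annotation of the GRCz12tu assembly, used for names and neighbours only, ptgdsb is listed as ptgdsb.1 and zgc:153154 as ptgdsb.2, with 0 protein-coding genes between them, and both lie on the same chromosome as cebpd. How the counting treated reads that fit both copies is not given in the sources used here, so the split of reads between them is uncertain. zgc:153154 stood at 367 and 371 CPM in ablated brain and 310 and 328 CPM in uninjured brain. These did not overlap, and the log2 fold change of 0.21 (SE 0.05, edgeR adjusted p = 0.171) was smaller than the 0.65 of ptgdsb and was not called. In marrow its ablated libraries were at 39.8 and 7.04 CPM against 38.6 and 60.8 CPM in uninjured ones, so ablated replicate 2 was the lowest library for both neighbours.

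In the cebpd experiment zgc:153154 stood at 261, 344 and 262 CPM in wild type and 216, 194 and 211 CPM in mutant brain. All 3 mutant libraries lay below all 3 wild type ones. The log2 fold change was -0.48 (SE 0.10, 95% interval -0.69 to -0.27) with an edgeR adjusted p of 0.0771, which was not called, while DESeq2 called it at an adjusted p of 0.00257. It was called in 4 of 11 alternatives, DESeq2 among them, 1 of the 4 with a library left out. Over all alternatives the fold change ran from -0.55 to -0.34 and the adjusted p from 0.00257 to 0.404. Between tissues the neighbours differed: zgc:153154 was higher in brain than in marrow by a log2 fold change of 2.47 (SE 0.22, edgeR adjusted p = 0.000134), where ptgdsb was not called.

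**Figure D3:**
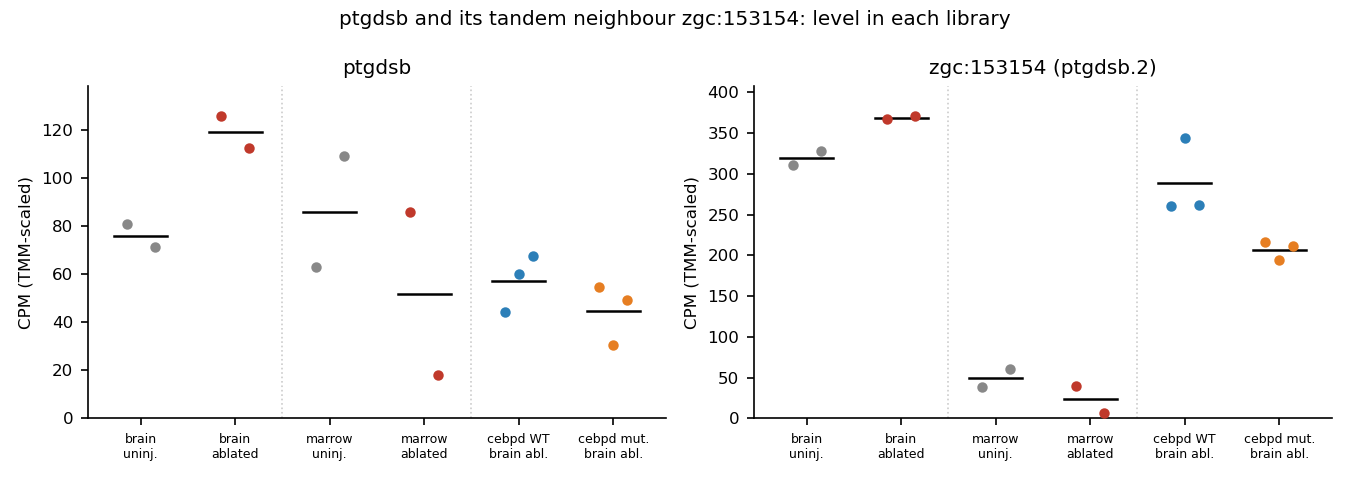
Level of ptgdsb and of its tandem neighbour zgc:153154 in each of the 14 RNA libraries, in TMM-scaled CPM on linear axes from 0; each point is 1 library and the bar is the group mean. Both genes have their lowest marrow value in ablated replicate 2, at 17.9 and 7.04 CPM, and zgc:153154 has mutant libraries at 194 to 216 CPM below wild type ones at 261 to 344 CPM.

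The rest of the pathway was read from a list of 73 entries, of which 47 are in the tables. After ablation in brain 37 were tested and 1 was called, with 0 lower. That gene was abcc4, a transporter that exports prostaglandins in mammals. It stood at 86.4 and 75.3 CPM after ablation and at 44.7 and 35.4 CPM in uninjured brain. Its log2 fold change was 1.01 (SE 0.10, edgeR adjusted p = 0.00377), and its call was lost, at an adjusted p of 0.633 with the fold change still 1.01, when both tissues shared 1 fit. In marrow abcc4 stood at 451 and 523 CPM after ablation and at 379 and 431 CPM in uninjured fish.

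Of the breakdown enzymes, ptgr1, a prostaglandin reductase, stood at 11.8 and 35.9 CPM in ablated and 9.76 and 10.5 CPM in uninjured brain. Replicate 2 alone was high, and the log2 fold change of 1.26 (SE 0.37, edgeR adjusted p = 0.322) was 0.22 without that library. The 7 receptors tested in brain, the 8 genes of arachidonate release and the 11 of the leukotriene and lipoxygenase branch gave no call. The median log2 fold change over the 37 genes was 0.01.

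In the ablated marrow 36 genes of the list were tested and 0 were called by edgeR. At an unadjusted p under 0.05 there were 9, beside 2384 of all 12160 genes tested. DESeq2 called 3 higher and 2 lower, beside 429 and 178 of all genes. The smallest adjusted p was that of ptges3b, which encodes a co-chaperone also described as a cytosolic prostaglandin E synthase. Its ablated libraries were at 101 and 99.1 CPM against 58.9 and 56.5 CPM in uninjured marrow, a log2 fold change of 0.80 (SE 0.10, edgeR adjusted p = 0.0740). ptger2b, a prostaglandin E2 receptor, stood at 6.04 and 4.39 CPM after ablation and at 2.20 and 1.84 CPM in uninjured marrow. Its log2 fold change was 1.36 (SE 0.28, edgeR adjusted p = 0.109).

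Its paralog ptger2a lay the other way, with a log2 fold change of -0.43 and an adjusted p of 0.238. alox5b.3, an arachidonate 5-lipoxygenase gene with tandem copies between which reads may be split, stood at 225 and 174 CPM after ablation and at 87.9 and 54.6 CPM in uninjured marrow. Its log2 fold change was 1.49 (SE 0.26, edgeR adjusted p = 0.0980). Lower after ablation, and likewise not called by edgeR, were ephx2, an epoxide hydrolase, at -0.53 (adjusted p = 0.102), faah, a fatty acid amide hydrolase, at -0.71 (adjusted p = 0.149), and tbxas1, the thromboxane synthase, at -0.44 (adjusted p = 0.171). DESeq2 called ptges3b, ptger2b and alox5b.3 higher and ephx2 and faah lower. Nephron markers summed to 5102 to 5593 CPM after ablation and 6451 to 6925 CPM in uninjured marrow, and neutrophil markers to 4370 to 4777 CPM and 4910 to 4983 CPM. Thrombocyte markers, whose sums in marrow are given above, were higher after ablation, with a median log2 fold change of 0.93 over 5 genes, of which edgeR called 0 and DESeq2 3. Erythroid markers summed to 6566 to 11232 CPM after ablation and 5333 to 7938 CPM in uninjured marrow, with a median of 0.52 over 5 genes, of which edgeR called 0 and DESeq2 1. Their part in these values was not tested. The median log2 fold change over the 36 genes was -0.07.

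Between cebpd genotypes 30 genes of the list were tested and 0 were called by edgeR, with a median of 0.04. At an unadjusted p under 0.05 there was 1, beside 944 of all 11103 genes tested. It was zgc:153154, which is also the 1 that DESeq2 called. Among the other synthases, ptgesl and ptges3a had log2 fold changes of 0.16 and -0.12, with unadjusted p of 0.0720 and 0.0819. In each remaining role the gene with the smallest p was plaa, a phospholipase-activating protein, with a log2 fold change of 0.22, mgst3, a microsomal glutathione transferase, with 0.17, slco2a1, a prostaglandin uptake transporter, with 0.27, and ptger4b, a prostaglandin E2 receptor, with -0.24. In the difference of the ablation effects between tissues 40 were tested and 0 called by edgeR. At an unadjusted p under 0.05 there were 7, beside 2091 of all 13077 genes tested. DESeq2 called 1 higher and 1 lower. These were ptges3b, at 0.83 (SE 0.14, edgeR adjusted p = 0.0600), and abcc4, at -0.75 (SE 0.20, edgeR adjusted p = 0.131).

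**Figure D4:**
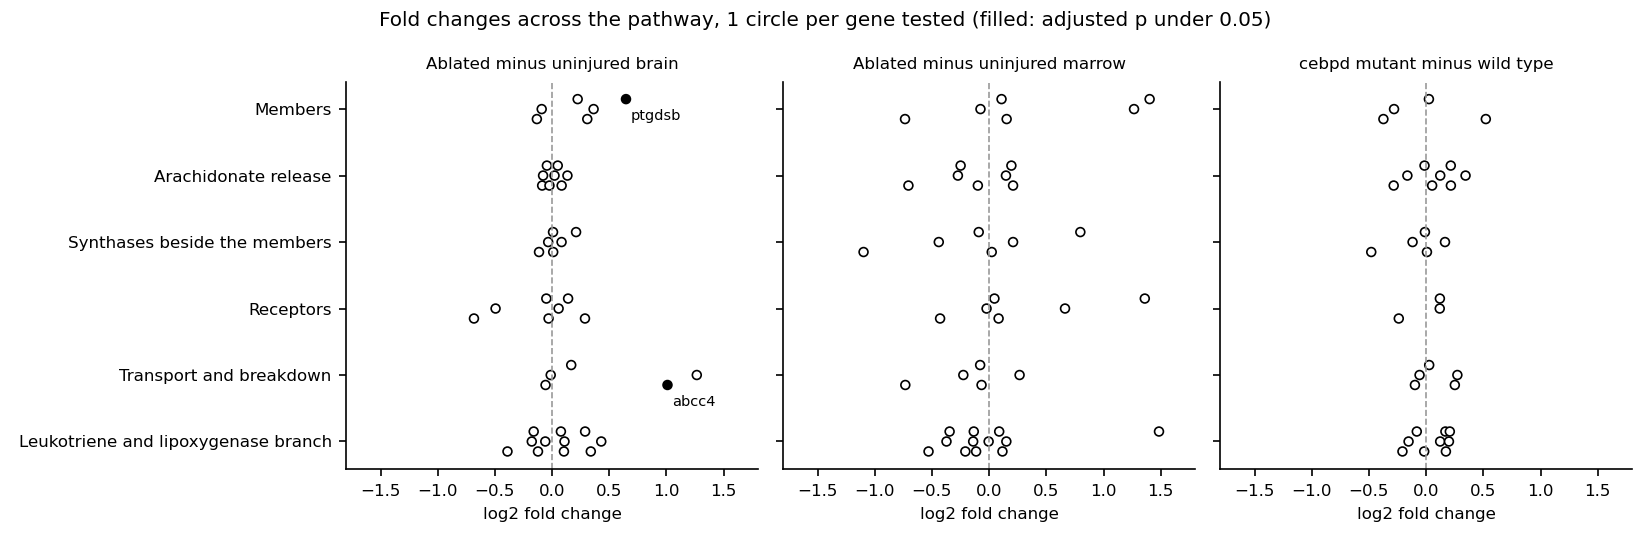
Log2 fold change of each tested gene of the pathway by role, in the ablated brain, in the ablated marrow and between cebpd genotypes; each circle is 1 gene and filled circles have an edgeR adjusted p under 0.05. In the ablated brain the filled circles are ptgdsb at 0.65 and abcc4 at 1.01, and the other 2 comparisons have none.

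Between the uninjured tissues 39 genes of the list were tested, 8 called higher and 21 lower in brain, beside 78.1% of all genes tested. Leukotrienes are another main fate of arachidonic acid and a product of white blood cells. The leukotriene and lipoxygenase list, which also holds alox12 and the epoxide hydrolase ephx2, was lower in brain for 10 of 12 genes. It was higher for 1, mgst2, which DESeq2 did not call (adjusted p = 0.0850). Of all 12936 genes tested, 5065 were called lower in brain and 5036 higher. alox5a, a 5-lipoxygenase, was lower by a log2 fold change of -4.20, alox5b.3 of -5.43, its activating protein alox5ap of -4.71, lta4h, which makes leukotriene B4, of -3.00, and ltb4r, its receptor, of -5.09. alox12, ephx2, mgst3 and zgc:158387 were lower by -2.57, -1.59, -0.74 and -0.94. cysltr1, a cysteinyl leukotriene receptor, had 2 and 1 reads in uninjured brain and 888 and 794 in uninjured marrow.

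The neutrophil marker sums of both tissues, given above, moved with this group of genes. Nephron, erythroid and thrombocyte markers were likewise all called lower in brain. The part of any of these cells in this group of genes was not tested. Among the prostaglandin genes, abcc4 was lower in brain by -3.55, slco2a1 by -1.95, ptgr1 by -1.48, and the prostaglandin E2 receptors ptger2a and ptger4b by -2.68 and -2.80. tbxa2r, the thromboxane receptor, had 3 and 2 reads in uninjured brain and 12 and 23 in marrow. The prostaglandin F receptor ptgfr had 33 and 19 reads in uninjured brain and 1 and 0 in marrow, and ptger4c had 13 and 11 in brain and 2 and 0 in marrow. Of the synthases, ptgesl and ptges3a were higher in brain, at 1.05 and 0.61, and ptges3b and tbxas1 lower, at -0.36 each. ptges3b and tbxas1 overlapped between the tissues in CPM scaled separately for each tissue. The fit also scales between the tissues, which these CPM do not. How far these small differences depend on that scaling was not tested. DESeq2 called neither gene, at adjusted p of 0.0729 and 0.0792. Of arachidonate release, the phospholipase gene pla2g6 was higher in brain at 0.91, while pla2g4aa, pla2g7 and faah were lower at -1.06, -1.24 and -4.18. zgc:123275, listed as pla2g3 in the reference, had 50 and 60 reads in uninjured brain and 0 and 0 in marrow.

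Likeness to the 4 members tested in both brain fits was measured over the 10 brain libraries as the root mean square difference of log2 CPM, each gene centred on the mean of its experiment, among 11073 genes. ptgdsb, whose centred values spanned 1.14, was most like trmt61a at 0.14, tpd52l1 at 0.17 and spice1 at 0.19. ptgs1, with a span of 0.85, was most like dlx6a at 0.09, cd82b at 0.09 and cry-dash at 0.11. ptgs2a, with a span of 1.74, was most like sdr42e1 and tmem44, both at 0.19, and fstl3 at 0.21. ptges, with a span of 1.01, was most like trabd at 0.09, gpr137bb at 0.11 and slc25a15b at 0.14. No other member appears among these nearest genes. The members' own root mean square from 0 was 0.35 for ptgdsb, 0.25 for ptgs1, 0.47 for ptgs2a and 0.30 for ptges. In the cebpd libraries ptgs1 had 9 to 26 reads, ptgs2a 5 to 17 and ptges 15 to 25, so their centred values there are imprecise. Whether the genes named share regulation with the members was not tested.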

How the data were processed

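RNA was sequenced from brain and whole kidney marrow in 14 libraries, and the authors deposited raw read counts per gene symbol for each, with no normalization. Per the submitters' processing notes, which do not separate the assays, reads were trimmed, mapped and counted with tools that include HTSeq 1.6.1, TopHat2 2.1.1, Bowtie2 2.2.5 and Trim Galore 0.4.1 and 0.6.4, on the build danRer10. The annotation, the strand setting and the rule for multi-mapped reads are not stated in the labels or files, so overlapping and near-identical genes may share reads. Reads that the counting listed as matching no gene feature, 37.4% to 58.3% of the total, and the other summary lines stayed out of library sizes and tests.

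Groups came from the sample labels. Whether replicates come from separate animals is not stated, so p-values measure the spread between these samples only. Fits were made with edgeR 4.0.16 in R 4.3.3 on the counts as deposited, with filterByExpr at its minimum count of 10, TMM scaling, glmQLFit, two-sided glmQLFTest and Benjamini-Hochberg adjustment at 0.05. Standard errors come from the F statistic, and 95% intervals from its degrees of freedom. Only the groups compared entered a fit, and the tissue difference is an interaction over 8 libraries. The fits were also run on simulated data with a fixed spread and with changes in better-covered genes only. That spread was smaller than in the fits of the marrow, of the uninjured tissues and of the tissue difference. Those runs do not show what could be detected in these fits or at low counts. Alternatives were DESeq2 1.42.0, RLE size factors, 1 fit of 4 groups, a replicate block, each library left out, no filter, and a minimum mean count of 50.

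The members, the gene lists and the tests were chosen with earlier results of these data known. The genes named are the members, cebpd, the genes of the pathway list called in any fit and up to 3 per role with the smallest p, and for each member the 3 most alike genes. GRCz12tu served only for names, with 5 members matched by symbol and 1 by synonym, and for neighbours. A planned description of promoters and proteins was not made, as no sequence table was used here.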

Additional observations from a re-analysis of the deposited data

How the results depend on the processing

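Of 292 member fold changes recomputed under alternatives, 264 kept their direction and their side of the threshold, 22 changed sign, 3 lost the call and 3 gained it; of 261 of pathway genes, 234 did so, 26 gained a call and 1 lost it. ptgdsb in brain was called in 9 of 10 alternatives, 4 of which leave 1 library in a group. With 4 groups of both tissues in 1 fit it was 0.65 (adjusted p = 1) with 0 members higher, while ptges in marrow was 1.26 (adjusted p = 0.0233) with 1 member higher. The tissue difference of ptgis, 0.01, was -0.043 with RLE, -0.046 with DESeq2 and -0.034 without the filter. Leaving out 1 library at a time gave, in brain, ptges -0.033 to 0.52 and ptgis -0.29 to 0.16; in marrow, ptgis -0.30 to 0.18 and ptgs2b -0.22 to 0.50; between genotypes, ptgs1 -0.15 to 0.34 and ptgs2a 0.053 to 1.17. For the tissue difference it gave ptgdsb -2.96 to -0.71, ptgis -0.26 to 0.23, ptgs2a -0.019 to 1.66, ptgs2b -0.14 to 0.58 and 0 to 1 members lower. Between tissues it gave ptgdsb -0.73 to 0.056, ptgs2a -0.15 to 0.48, ptgs2b -1.21 to -0.60 and 1 to 3 members lower. The cause was not tested.

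Counts over all genes, higher and lower, were 35 and 21 in brain, 0 and 0 in marrow, 4 and 11 between genotypes, and 29 and 5 for the tissue difference. The fit of 4 groups gave 0 and 1 in brain and 912 and 440 in marrow. DESeq2 gave 429 and 178 in marrow, 11 and 39 between genotypes and 160 and 104 for the difference. Without the filter 36 were lower in brain, and 14 higher and 27 lower between genotypes; a mean count of at least 50 gave 2 higher there. Leaving out 1 library gave 25 to 99 higher and 12 to 101 lower in brain, 0 to 1 higher in marrow, 2 to 12 and 4 to 77 between genotypes, and 0 to 198 and 0 to 115 for the difference.

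Deviations from the group mean of libraries with the same replicate number had correlations of -0.06 to 0.11 across genes. In groups of 2 libraries the deviations mirror each other, so these correlations cannot settle whether the numbers pair libraries. A replicate block gave 163 and 195 in brain, 433 and 165 in marrow, 22 and 44 between genotypes and 196 and 61 for the difference, and changed no call of a member. The cebpd libraries gave 1 to 26 reads of ptgs1, ptgs2a, ptgs2b, ptges and ptgis each, which limits what could be detected there.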

Other observations

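Ablated brain of fish with intact cebpd was sequenced in both experiments, which were scaled separately, so the levels are set side by side with no test. ptgs2b stood at 5.91 to 6.24 CPM in the ablation experiment and at 1.03 to 1.27 CPM in the cebpd wild type libraries. ptgdsb stood at 112 to 126 CPM and at 44.4 to 67.7 CPM. ptgs2a stood at 5.00 to 6.10 CPM and at 0.795 to 3.52 CPM, ptges at 2.74 to 3.23 CPM and at 2.38 to 5.17 CPM. ptgs1 stood at 3.44 to 4.21 CPM and at 2.14 to 4.13 CPM, ptgis at 1.40 to 1.45 CPM and at 0.795 to 1.90 CPM. How many other genes differed as much between the experiments was not counted.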
